A study of Nicotiana tabacum with 6 samples.

Results

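Leaves of tobacco plants with a deletion of psbA, a gene of the plastid genome that encodes D1 of photosystem II, were compared with wild type leaves over 10038 of the 10209 probe sets of an Affymetrix tomato GeneChip. The comparison takes the 2 arrays labelled psbA deletion mutant and the 2 labelled normal plant, out of 6 arrays in all, and every probe set other than the Affymetrix control and reporter ones. The other 2 arrays carry RNA of plants with a deletion of psaA, the plastid gene for a photosystem I reaction-centre protein, and serve here only to show where the psbA deletion differs from another photosystem mutant. All 6 samples are leaves of Nicotiana tabacum, and the labels give the cultivar as Petit Havanna. Per the labels, plants grew in culture bottles in dim light, 16 h light and 8 h dark, on medium with 500 mg/L spectinomycin, a plastid translation inhibitor used to keep transplastomic plants under selection. That growth text stands on the wild type samples too, and whether wild type plants were on the drug is unclear, so drug and genotype cannot be told apart in a comparison with wild type. Leaves were taken 2 to 3 weeks after subculture. Replicates are biological ones by the labels, with nothing on separate plants or lines. The p-values therefore measure only the spread between these arrays.

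Photosystem II oxidises water and passes electrons to the plastoquinone pool, and D1 carries much of its charge-separating chemistry. D1 is damaged in the light and replaced throughout the life of the leaf, and plants without it cannot assemble a working photosystem II. Most other proteins of the photosynthetic machinery are encoded in the nucleus, and transcripts of such nuclear genes are known to respond to the state of the plastid.

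The deposited values are on a log2 scale and are centred on each probe set's median over the 6 arrays, so a value of 0 marks the middle of the arrays and not an absent transcript, and the middle pair of arrays lies equally far to either side of 0. Values of different genes cannot be set against each other as levels. Differences are psbA deletion minus wild type, each from 2 arrays per group, with the standard error (SE) of a limma fit to all 6 arrays. A probe set was called when its p, adjusted by the Benjamini-Hochberg method over all 10038 probe sets, was under 0.05, and "rose" and "fell" below are used only of called probe sets. The chip was designed on tomato, so a gene name is that of the tomato gene, and 909 probe sets, or 9.06%, have one. In whole leaves a smaller share of a cell type and less RNA per cell cannot be told apart.

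No probe set is tied to psbA, so the deletion itself could not be checked by the targeted gene. Among 63 probe sets for engineered reporter sequences, left out of the tests, 1 read 0.28 and 0.35 on the psbA deletion arrays, -0.078 and 0.078 on the psaA deletion arrays, and -6.13 and -5.98 on the wild type arrays. It was 6.37 higher on the log2 scale, or 82.5-fold, in the psbA deletion than in wild type. The other 62 differed by -0.411 to 0.435, so this 1 reporter separates mutant from wild type arrays in the way the labels do. The difference between a group's 2 arrays had a standard deviation of 0.23 in the psbA deletion and 0.21 in wild type. The 3′ minus 5′ signal of 6 control transcripts, a measure of RNA integrity, differed between the groups by -0.13 to 0.32. The levels of these transcripts, as medians of their probe sets, were also compared, psbA deletion minus wild type. They differed by 0.59 (actin), 0.44 (GlutTrans), 0.40 (ubiquitin), 0.23 (ef1a), 0.038 (PhyB2) and -0.034 (gapdh). The 25S rRNA control was at 0.83 and the 17S one at -0.28. The leaf mesophyll markers measured, CAB4 and PETE, both fell and are also members of the photosynthesis lists below, with summed values of -0.070 and 0.055 on the psbA deletion arrays and 1.46 and 1.32 on the wild type arrays. Root markers summed to -0.60 and -0.68 on the psbA deletion arrays and 0.35 and -0.15 on the wild type arrays. Of 7 genes 1 rose (Nramp2, a metal transporter, 0.47) and 1 fell (NRAMP3, -0.48), beside 5.11% and 7.48% of all named genes. Nramp2 missed the threshold without psbA deletion replicate 2, wild type replicate 1 or wild type replicate 2 (log2 difference between 0.35 and 0.53, adjusted p up to 0.187). NRAMP3 missed it on leaving out each of the 4 psbA deletion and wild type arrays (log2 difference between -0.39 and -0.58, adjusted p up to 0.161). Of 3 meristem, 1 epidermis and 2 flower and fruit markers 0 were called by limma, and 0 had an unadjusted p under 0.05. The part of tissue makeup in the results below was not tested.

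Across the chip 1130 probe sets, 11.3%, were called, 548 higher (5.46%) and 582 lower (5.8%) in the psbA deletion. Large changes leaned to lower values, since of the 159 probe sets called with at least a 2-fold change (1.58%), 108 fell (1.08%) and 51 rose (0.508%). An unadjusted p under 0.05 was reached by 2472 probe sets, 24.6%. The median difference was 0.018, and the middle 95% of probe sets lay between -0.72 and 0.63. The smallest called difference was 0.38 in size and the median called one 0.63. The psbA deletion and wild type arrays did not overlap at 5308 probe sets, 52.9%, so a lack of overlap alone says little with 2 arrays per group. At 1 probe set per named gene, 101 of 802 genes, 12.6%, were called, 41 higher (5.11%) and 60 lower (7.48%).

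These counts depend on the arrays and on the scale. With 1 array left out, 620 and 670 probe sets were called without psbA deletion replicate 1 and 2, and 535 and 509 without wild type replicate 1 and 2. Scaled on the spiked poly-A controls, 101 probe sets were called higher and 5951 lower, since the median of all probe sets was then -0.44, against 0.018 as deposited. Of the rises named here, those of GluB, SAM1, CIP2b and LOC543942 kept their call under that scaling. Fitted without the psaA deletion arrays, 856 probe sets were called, and of the genes named below ADC, APX2, CLPP2, ER43, LOC543600, NRAMP3, Nramp2, PDS, PR-5, TAS14, TBG7, cel5 and opr2 missed the threshold (adjusted p = 0.0534 to 0.0881). ADC, PDS, cel5 and opr2 also missed it when the hybridisation controls set the scale (adjusted p = 0.0563 to 0.0644).

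The greatest fall on the chip and both of its greatest rises were at probe sets with no gene name. Probe set LesAffx.3394.1.S1_at read -1.08 and -1.09 on the psbA deletion arrays and 2.17 and 2.15 on the wild type arrays, 9.48-fold lower in the mutant (log2 difference -3.24 ± 0.10, adjusted p = 5.64e-06). The psaA deletion arrays lay between them at -0.048 and 0.048. Les.4298.1.S1_s_at, the third lowest after a ca2 probe set at -2.29, read -0.24 and -0.49 in the psbA deletion and 1.92 and 1.76 in wild type, a log2 difference of -2.20 ± 0.12. At the other end, Les.2458.1.S1_at read 1.19 and 1.65 in the psbA deletion and -0.99 and -0.85 in wild type, a log2 difference of 2.34 ± 0.17. LesAffx.56104.1.S1_at read 2.02 and 1.93 in the psbA deletion, far above both the psaA deletion arrays (0.037 and -0.037) and the wild type arrays (-0.36 and -0.25).

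**Figure D1:**
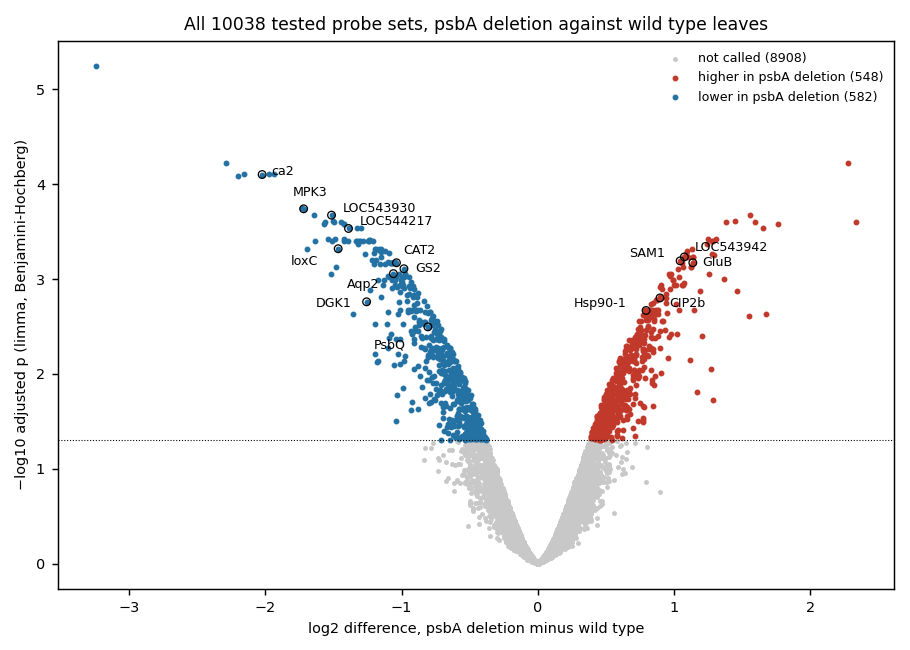
Each point is 1 of the 10038 tested probe sets, with the log2 difference (psbA deletion minus wild type) on the x axis and -log10 of the limma adjusted p on the y axis; the dotted line is the 0.05 threshold, red points are the 548 called higher, blue points the 582 called lower, and circled points are named genes. The lower side reaches further, to -3.24, than the higher side, to 2.34.

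Nuclear genes of photosystem II fell together in the psbA deletion leaves. Of 6 measured genes for the photosystem and its antenna, 5 fell and 0 rose, beside 7.48% of all named genes called lower, and the median difference was -0.67, against 0.018 over all probe sets. PsbQ, an extrinsic protein of the oxygen-evolving complex, read 0.069 and -0.069 on the psbA deletion arrays and 0.86 and 0.75 on the wild type arrays. The PsbQ difference was -0.81 ± 0.11 (SE) on the log2 scale, or 1.75-fold lower (adjusted p = 0.00319). PSBP, its partner in that complex, read 0 on both psbA deletion arrays, the middle pair of the 6, and 0.69 and 0.75 in wild type. The PSBP difference was -0.72 ± 0.11 (SE) on the log2 scale, or 1.65-fold lower (adjusted p = 0.00416). PSBO, the protein that stabilises the manganese cluster, read 0.030 and -0.030 in the psbA deletion and 0.53 and 0.54 in wild type. The PSBO difference was -0.53 ± 0.10 (SE) on the log2 scale, or 1.45-fold lower (adjusted p = 0.012). For these oxygen-evolving proteins both mutant arrays lay below both wild type arrays, with replicate gaps far smaller than the distance between the groups. The groups did not overlap at 52.9% of all probe sets. Among the chlorophyll a/b-binding antenna proteins, CAB4 read -0.025 and 0.025 in the psbA deletion against 0.80 and 0.57 in wild type (-0.68, adjusted p = 0.0102), and CAB5 read 0.062 and -0.062 in the psbA deletion against 0.67 and 0.65 in wild type (-0.66, adjusted p = 0.0132). PSBR, another nuclear-encoded subunit, was the exception with a difference of -0.090, adjusted p = 0.652. Some of these calls rested on single arrays. CAB4 missed the threshold without psbA deletion replicate 1 (log2 difference -0.66, adjusted p = 0.0604) and without wild type replicate 1 (-0.57, adjusted p = 0.0764). CAB5 did so without psbA deletion replicate 2, wild type replicate 1 or wild type replicate 2 (log2 difference between -0.60 and -0.67, adjusted p up to 0.0784). PSBO did so without psbA deletion replicate 2, wild type replicate 1 or wild type replicate 2 (log2 difference between -0.50 and -0.54, adjusted p up to 0.0698).

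Beyond photosystem II the measured members were few. PETE, plastocyanin, the copper protein that carries electrons to photosystem I, read -0.045 and 0.031 in the psbA deletion and 0.66 and 0.75 in wild type. The PETE difference was -0.71 ± 0.11 (SE) on the log2 scale, or 1.64-fold lower (adjusted p = 0.00543). The photosystem I antenna gene CAB6A was not called (-0.32, adjusted p = 0.149). Its arrays did not overlap, as at 52.9% of all probe sets. In tetrapyrrole synthesis, which feeds chlorophyll, GSA-AT, the aminotransferase that makes aminolevulinate, read -0.045 and 0.045 in the psbA deletion and 0.73 and 0.65 in wild type. The GSA-AT difference was -0.69 ± 0.10 (SE) on the log2 scale, or 1.61-fold lower (adjusted p = 0.00445). POR2, a protochlorophyllide oxidoreductase, was not called (-0.32, adjusted p = 0.144), nor was AUREA, the phytochromobilin synthase (-0.33, adjusted p = 0.0807). GSA-AT and AUREA belong to a group added after the fit was seen. The gene with the greatest fall of any with a symbol was ca2, a carbonic anhydrase, which read 0.091 and -0.091 in the psbA deletion and 2.01 and 2.03 in wild type, 4.06-fold lower (log2 difference -2.02 ± 0.11, adjusted p = 7.92e-05). It was the lone measured gene of the carbon fixation and photorespiration list. CLPP2, a Clp-type protease subunit in another group added after the fit was seen, fell by less (-0.46, adjusted p = 0.0317). The CLPP2 call was lost on leaving out each of the 4 psbA deletion and wild type arrays (log2 difference between -0.38 and -0.55, adjusted p up to 0.153). The 3 genes listed for plastid gene expression, among them the sigma factor sig1 (0.039), gave 0 calls by limma and 0 with an unadjusted p under 0.05.

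CAT2 of the antioxidant list and GS2 of the nitrogen list each fell by about 1 log2 unit. CAT2, a catalase that removes hydrogen peroxide, read 0.017 and -0.017 on the psbA deletion arrays and 1.07 and 1.01 on the wild type arrays. The CAT2 difference was -1.04 ± 0.10 (SE) on the log2 scale, or 2.05-fold lower (adjusted p = 0.000674). GS2, the plastid glutamine synthetase that recaptures ammonium, read -0.0081 and 0.0054 in the psbA deletion and 0.98 and 0.98 in wild type. The GS2 difference was -0.98 ± 0.10 (SE) on the log2 scale, or 1.98-fold lower (adjusted p = 0.000779). In both genes the replicates lay almost on top of each other. The other measured catalase, cat1, named after its values were seen, was not called (0.060, adjusted p = 0.826). Among malate dehydrogenases, a group added after the fit was seen, the glyoxysomal gMDH fell (-0.62, adjusted p = 0.00723), as did the chloroplast form chMDH (-0.54, adjusted p = 0.0192), while neither the cytosolic form cMDH (-0.67, adjusted p = 0.135) nor mMDH1 (0.011, adjusted p = 0.971) was called. Neither of the other nitrogen genes, gdh1 (a glutamate dehydrogenase, 0.57, adjusted p = 0.0715) and gts1 (0.070), was called. The call of gMDH ended without wild type replicate 2 (log2 difference -0.61, adjusted p = 0.0526). That of chMDH ended on leaving out each of the 4 psbA deletion and wild type arrays (log2 difference between -0.46 and -0.61, adjusted p up to 0.123).

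Antioxidant enzymes gave calls in both directions. Of 12 measured, 3 fell (CAT2 among them) and 1 rose, with a median of -0.044. Of all named genes 7.48% were called lower and 5.11% higher. GPXle-1, a glutathione peroxidase, read -0.64 and -0.65 in the psbA deletion and 0.16 and 0.18 in wild type. The GPXle-1 difference was -0.81 ± 0.10 (SE) on the log2 scale, or 1.75-fold lower (adjusted p = 0.00194). DHAR2, a dehydroascorbate reductase that regenerates ascorbate, read -0.12 and -0.22 in the psbA deletion and 0.50 and 0.80 in wild type, with wider replicate gaps. The DHAR2 difference was -0.83 ± 0.17 (SE) on the log2 scale, or 1.77-fold lower (adjusted p = 0.0179). APX2, an ascorbate peroxidase, went the other way with 0.065 and -0.065 in the psbA deletion and -0.39 and -0.56 in wild type. The APX2 difference was 0.48 ± 0.11 (SE) on the log2 scale, or 1.39-fold higher (adjusted p = 0.0321). Its further probe set rose as well (0.45, adjusted p = 0.0311). The chloroplast superoxide dismutase SODCP.2 was not called (-0.50, adjusted p = 0.243), and its replicate mutant arrays lay far apart at -0.73 and 0.10. MDHAR (0.36, adjusted p = 0.0659) and the thioredoxin peroxidase TPx1 (0.46, adjusted p = 0.0508) lay above wild type without passing. TPx1 belongs to a group added after the fit was seen. The DHAR2 call was lost without psbA deletion replicate 1, psbA deletion replicate 2 or wild type replicate 2 (log2 difference between -0.68 and -0.88, adjusted p up to 0.123). That of APX2 was lost on leaving out each of the 4 psbA deletion and wild type arrays (log2 difference between 0.40 and 0.56, adjusted p up to 0.173) and under poly-A control scaling.

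**Figure D2:**
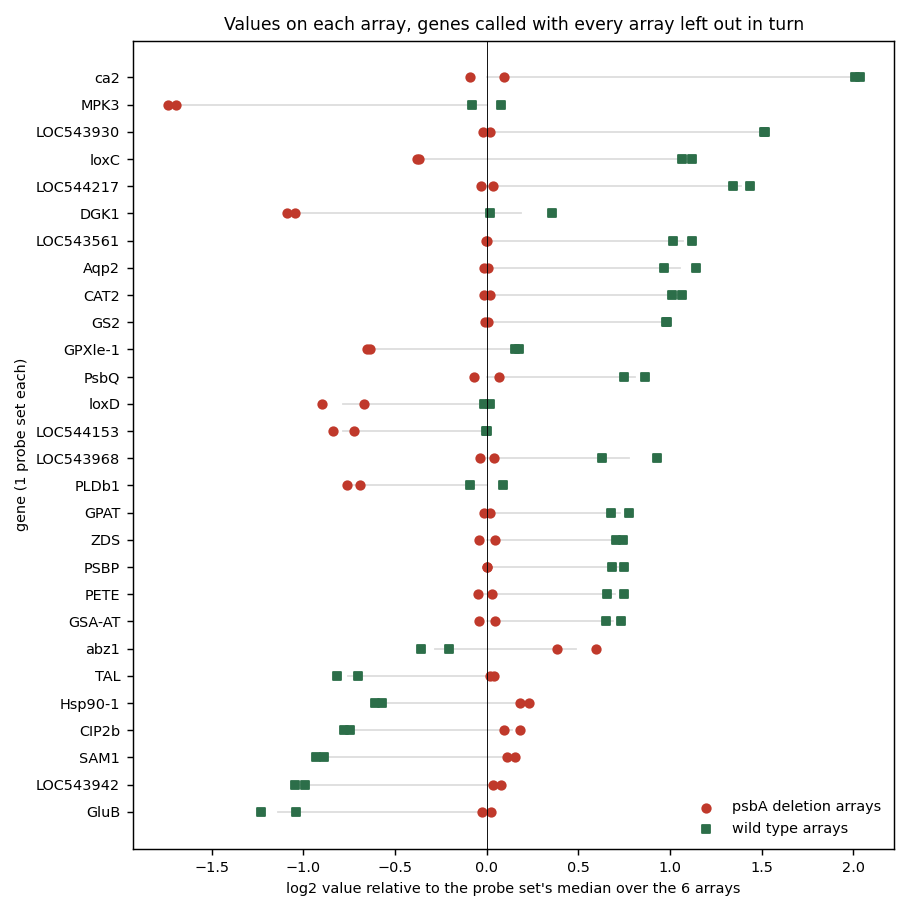
Deposited log2 values, relative to each probe set's median over the 6 arrays, for the 28 named genes whose call held with each array left out in turn; red circles are the 2 psbA deletion arrays, green squares the 2 wild type arrays, 1 row per gene, and lines join the group means. In ca2 the mutant arrays sit near 0 and the wild type arrays near 2, while in MPK3 the wild type arrays sit near 0 and the mutant arrays between -1.70 and -1.74.

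Of 12 carotenoid genes 3 fell and 0 rose, beside 7.48% of all named genes called lower and 5.11% higher, and the median was -0.25 with 11 of 12 differences negative. The count of falls was 1 without wild type replicate 1 and 1 without wild type replicate 2. ZDS, zeta-carotene desaturase, read 0.044 and -0.044 in the psbA deletion and 0.75 and 0.70 in wild type. The ZDS difference was -0.72 ± 0.11 (SE) on the log2 scale, or 1.65-fold lower (adjusted p = 0.00381). PSY2, a phytoene synthase at the entry of the pathway, read 0.032 and -0.032 in the psbA deletion and 0.60 and 0.56 in wild type. The PSY2 difference was -0.58 ± 0.10 (SE) on the log2 scale, or 1.5-fold lower (adjusted p = 0.00878). PDS, the phytoene desaturase between them, was near the threshold (-0.41, adjusted p = 0.047), and CRTL-E-1, added to the list after the fit was seen, the lycopene epsilon-cyclase that leads toward lutein, also fell (-0.48, adjusted p = 0.0236). The probe sets of VDE, which de-epoxidises violaxanthin when light is in excess, disagreed. The one taken for the gene was not called (-0.42, adjusted p = 0.122). The other read 0.011 and -0.011 in the psbA deletion and 1.08 and 1.16 in wild type (log2 difference -1.12 ± 0.10 (SE), 2.18-fold, adjusted p = 0.000512). ZEP, which runs the opposite step of that cycle, was not called (-0.24, adjusted p = 0.253). PSY2 missed the threshold without wild type replicate 1 (log2 difference -0.56, adjusted p = 0.0592) and without wild type replicate 2 (-0.60, adjusted p = 0.0508). PDS missed it on leaving out each of the 4 psbA deletion and wild type arrays (log2 difference between -0.35 and -0.47, adjusted p up to 0.213). CRTL-E-1 missed it on leaving out each of the 4 psbA deletion and wild type arrays (log2 difference between -0.43 and -0.53, adjusted p up to 0.116).

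Precursor supply gave 1 call among 4 listed genes, beside 12.6% of all named genes. HDS, an enzyme of the plastid methylerythritol phosphate route, read -0.084 and 0.0072 in the psbA deletion and 0.71 and 0.62 in wild type. The HDS difference was -0.70 ± 0.12 (SE) on the log2 scale, or 1.63-fold lower (adjusted p = 0.00688). DXR of the same route was not called (-0.44, adjusted p = 0.165). FPPS1, the farnesyl diphosphate synthase of the cytosolic branch, added to the list after the fit was seen, read -0.45 and -0.65 in the psbA deletion and -0.0086 and 0.0086 in wild type. The FPPS1 difference was -0.55 ± 0.12 (SE) on the log2 scale, or 1.47-fold lower (adjusted p = 0.0183). HMGR, which commits carbon to the mevalonate route, was not called against wild type (-0.25, adjusted p = 0.303). The HDS call was lost without wild type replicate 1 (log2 difference -0.66, adjusted p = 0.0543). That of FPPS1 was lost without psbA deletion replicate 2, wild type replicate 1 or wild type replicate 2 (log2 difference between -0.45 and -0.56, adjusted p up to 0.0974).

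Lipoxygenase and jasmonate genes gave 3 falls and 0 rises among 14 measured, with a median of -0.098, beside 7.48% of all named genes called lower and 5.11% higher. The gene loxC, for a chloroplast lipoxygenase known in tomato for making volatiles, read -0.37 and -0.38 on the psbA deletion arrays and 1.12 and 1.06 on the wild type arrays. The loxC difference was -1.46 ± 0.13 (SE) on the log2 scale, or 2.76-fold lower (adjusted p = 0.00048). The gene loxD, for the chloroplast lipoxygenase that feeds jasmonate synthesis, read -0.67 and -0.90 in the psbA deletion and 0.017 and -0.017 in wild type. The loxD difference was -0.78 ± 0.12 (SE) on the log2 scale, or 1.72-fold lower (adjusted p = 0.00415). Both genes were lower on each mutant array than on either wild type array, and 52.9% of all probe sets likewise lacked overlap. The oxophytodienoate reductase gene opr2 only just passed (-0.53, adjusted p = 0.0492) and lost its call without psbA deletion replicate 1, wild type replicate 1 or wild type replicate 2 (log2 difference between -0.36 and -0.65, adjusted p up to 0.24). Of the genes between these steps, AOC, allene oxide cyclase, missed the threshold narrowly (-0.39, adjusted p = 0.0537), and AOS (-0.39, adjusted p = 0.0933) and the hydroperoxide lyase HPL (-0.73, adjusted p = 0.0804) were not called.

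Signalling kinases and lipases held the strongest fall of a regulatory gene. MPK3, a MAP kinase activated by wounding and pathogens, read -1.70 and -1.74 on the psbA deletion arrays and -0.078 and 0.078 on the wild type arrays, 3.29-fold lower (log2 difference -1.72 ± 0.11, adjusted p = 0.000182). A second MPK3 probe set fell as well (-0.99, adjusted p = 0.014), and another was not called (-0.27, adjusted p = 0.197). DGK1, a diacylglycerol kinase of lipid signalling, read -1.05 and -1.09 in the psbA deletion and 0.017 and 0.36 in wild type. The DGK1 difference was -1.26 ± 0.15 (SE) on the log2 scale, or 2.39-fold lower (adjusted p = 0.00174). PLDb1, a phospholipase D, read -0.76 and -0.69 in the psbA deletion against -0.091 and 0.091 in wild type. The PLDb1 difference was -0.73 ± 0.11 (SE) on the log2 scale, or 1.66-fold lower (adjusted p = 0.00527). MKK4, a MAP kinase kinase, rose with 0.37 and 0.26 in the psbA deletion and -0.49 and -0.28 in wild type. The MKK4 difference was 0.70 ± 0.13 (SE) on the log2 scale, or 1.62-fold higher (adjusted p = 0.0103). The list of 13 as a whole had 3 falls, 1 rise and a median of -0.033, and 9 of its genes were not called. Beside this list and the next, 7.48% of all named genes were called lower and 5.11% higher. Among 9 receptors, oxidases and resistance genes 1 fell: Ve2, a receptor-like protein of the Verticillium resistance locus, with -0.97 and -0.51 in the psbA deletion and 0.049 and -0.049 in wild type. The Ve2 difference was -0.74 ± 0.15 (SE) on the log2 scale, or 1.67-fold lower (adjusted p = 0.0166). NPR1, a co-activator of salicylic acid responses, read -0.66 and -0.74 in the psbA deletion and 0.094 and -0.077 in wild type. The NPR1 difference was -0.71 ± 0.11 (SE) on the log2 scale, or 1.63-fold lower (adjusted p = 0.00611). Rab1A, a small GTPase of vesicle traffic, fell too (-0.62, adjusted p = 0.00947). Both NPR1 and Rab1A belong to groups added after the fit was seen. NPR1 was the 1 call among 7 defence and jasmonate regulators and Rab1A the 1 call among 8 Rab and Ran GTPases, beside 12.6% of all named genes. MKK4 lost its call without psbA deletion replicate 1 (log2 difference 0.64, adjusted p = 0.0644) and without wild type replicate 1 (0.59, adjusted p = 0.0783) and under poly-A control scaling. Ve2 lost its call without psbA deletion replicate 1, wild type replicate 1 or wild type replicate 2 (log2 difference between -0.51 and -0.79, adjusted p up to 0.103). NPR1 did so without wild type replicate 1 (log2 difference -0.62, adjusted p = 0.0518). Rab1A did so without psbA deletion replicate 2, wild type replicate 1 or wild type replicate 2 (log2 difference between -0.55 and -0.64, adjusted p up to 0.066).

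Pathogenesis-related proteins gave 3 rises and 0 falls among 11, with a median of 0.075, beside 5.11% of all named genes called higher and 7.48% lower. GluB, a basic beta-1,3-glucanase that attacks fungal walls, read 0.025 and -0.025 on the psbA deletion arrays and -1.23 and -1.04 on the wild type arrays. The GluB difference was 1.14 ± 0.11 (SE) on the log2 scale, or 2.2-fold higher (adjusted p = 0.000674). NP24-I, a thaumatin-like protein, read -0.0026 and 0.0026 in the psbA deletion and -0.59 and -0.62 in wild type. The NP24-I difference was 0.60 ± 0.10 (SE) on the log2 scale, or 1.52-fold higher (adjusted p = 0.00688). PR-5, of the same protein family, read -0.056 and 0.056 in the psbA deletion against -0.39 and -0.60 in wild type. The PR-5 difference was 0.50 ± 0.12 (SE) on the log2 scale, or 1.41-fold higher (adjusted p = 0.0287). All 3 genes were higher on both mutant arrays than on either wild type array, a lack of overlap found at 52.9% of all probe sets. The chitinases CHI17 (-0.50, adjusted p = 0.0887) and CHI14 (-0.49, adjusted p = 0.159) lay on the negative side and were not called. NP24-I missed the threshold without wild type replicate 2 (log2 difference 0.59, adjusted p = 0.0519). PR-5 missed it on leaving out each of the 4 psbA deletion and wild type arrays (log2 difference between 0.39 and 0.60, adjusted p up to 0.165). Both missed it under poly-A control scaling.

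Cytosolic chaperones of the HSP90 family rose while a plastid chaperonin fell. Hsp90-1 read 0.23 and 0.18 on the psbA deletion arrays and -0.57 and -0.61 on the wild type arrays. The Hsp90-1 difference was 0.80 ± 0.10 (SE) on the log2 scale, or 1.74-fold higher (adjusted p = 0.00214). HSC80, a constitutive HSP90, read 0.14 and 0.56 in the psbA deletion and -0.54 and -0.42 in wild type. The HSC80 difference was 0.83 ± 0.15 (SE) on the log2 scale, or 1.78-fold higher (adjusted p = 0.00919). CPN21, the co-chaperonin of the plastid, read -0.25 and -0.31 in the psbA deletion and 0.29 and 0.32 in wild type. The CPN21 difference was -0.59 ± 0.10 (SE) on the log2 scale, or 1.5-fold lower (adjusted p = 0.00825). HSP17.4, a small heat shock protein, was not called (-0.19, adjusted p = 0.386), nor were the other small ones HSP21 (0.28, adjusted p = 0.125) and HSP17-6 (0.20, adjusted p = 0.396). HSP21 and HSP17-6 belong to a group added after the fit was seen. HSC80 missed the threshold without wild type replicate 1 (log2 difference 0.77, adjusted p = 0.0711). CPN21 missed it without wild type replicate 2 (log2 difference -0.57, adjusted p = 0.0578). Under poly-A control scaling Hsp90-1 and HSC80 missed it as well.

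Light signalling gave 2 rises and 0 falls among 10 genes. Of all named genes 5.11% were called higher and 7.48% lower, the shares to set beside every list count in this paragraph. CIP2b, named as a partner of the COP1 repressor, read 0.18 and 0.091 on the psbA deletion arrays and -0.78 and -0.74 on the wild type arrays. The CIP2b difference was 0.90 ± 0.11 (SE) on the log2 scale, or 1.86-fold higher (adjusted p = 0.00158). CRY1A, a blue light receptor, read 0.71 and 0.40 in the psbA deletion and -0.057 and -0.0044 in wild type. The CRY1A difference was 0.59 ± 0.13 (SE) on the log2 scale, or 1.5-fold higher (adjusted p = 0.0228). The further CRY1A probe set rose as well (0.64, adjusted p = 0.00917). CRY2 (0.29, adjusted p = 0.146), DET1 (-0.12, adjusted p = 0.625) and DDB1 (0.11, adjusted p = 0.659) were not called. PCNA, the sliding clamp of DNA replication, was the 1 gene of 11 in the cell cycle list to pass, with 0.64 and 0.50 in the psbA deletion and -0.019 and 0.019 in wild type. The PCNA difference was 0.57 ± 0.11 (SE) on the log2 scale, or 1.49-fold higher (adjusted p = 0.0113). The B-type cyclin CycB2 (-0.63, adjusted p = 0.0633) and the kinase CDKB2 (-0.38, adjusted p = 0.248), which act at mitosis, were not called. The inhibitor krp1 missed the threshold narrowly (0.53, adjusted p = 0.0535). In translation eIF-5A3, an initiation factor, rose (0.61, adjusted p = 0.011), and the other 4 of 5 genes were not called. The CRY1A call ended without psbA deletion replicate 1, wild type replicate 1 or wild type replicate 2 (log2 difference between 0.43 and 0.61, adjusted p up to 0.117). The PCNA call ended without psbA deletion replicate 1, wild type replicate 1 or wild type replicate 2 (log2 difference between 0.50 and 0.59, adjusted p up to 0.0732). The eIF-5A3 call ended without psbA deletion replicate 2, wild type replicate 1 or wild type replicate 2 (log2 difference between 0.51 and 0.65, adjusted p up to 0.0764). Poly-A control scaling ended all 3.

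The hormone lists held few calls, beside 12.6% of all named genes called (5.11% higher and 7.48% lower). Of 32 ethylene genes, 2 rose and 0 fell: EIN2, the central transducer of the ethylene signal (0.54, adjusted p = 0.0162), and ER43 (0.58, adjusted p = 0.0441). The ethylene-forming oxidase ACO4 was not called (0.42, adjusted p = 0.0626), and the list median was 0.016, close to the 0.018 of all probe sets. Auxin and gibberellin gave 0 calls by limma among 7 genes and 0 with an unadjusted p under 0.05. The probe set taken for IAA3, an auxin response repressor, was not called (0.085, adjusted p = 0.742). Its further probe set, singled out after its values were seen, read 0.83 and 0.72 in the psbA deletion and -0.31 and -0.43 in wild type (1.14, adjusted p = 0.000585). CYP85A1, an oxidase of brassinosteroid synthesis in a group added after the fit was seen, split in the same way. Its plain probe set was not called (0.16, adjusted p = 0.593). At the probe set shared by several transcripts CYP85A1 read 0.82 and 1.28 in the psbA deletion and -0.30 and -0.95 in wild type (1.67, adjusted p = 0.00231). Of the water stress genes, the dehydrin TAS14 rose (0.58, adjusted p = 0.0397), and Aqp2, an aquaporin, fell with 0.0043 and -0.015 in the psbA deletion and 1.14 and 0.96 in wild type. The Aqp2 difference was -1.06 ± 0.11 (SE) on the log2 scale, or 2.08-fold lower (adjusted p = 0.000878). EIN2 lost its call on leaving out each of the 4 psbA deletion and wild type arrays (log2 difference between 0.49 and 0.58, adjusted p up to 0.0971). ER43 lost its call without psbA deletion replicate 2, wild type replicate 1 or wild type replicate 2 (log2 difference between 0.39 and 0.71, adjusted p up to 0.222). TAS14 lost its call without psbA deletion replicate 1, psbA deletion replicate 2 or wild type replicate 2 (log2 difference between 0.40 and 0.68, adjusted p up to 0.207). Poly-A control scaling ended these 3 calls too.

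SAM1, an S-adenosylmethionine synthetase that supplies methyl groups, polyamines and ethylene, was among the largest named rises, with 0.11 and 0.16 on the psbA deletion arrays and -0.89 and -0.93 on the wild type arrays. The SAM1 difference was 1.05 ± 0.10 (SE) on the log2 scale, or 2.06-fold higher (adjusted p = 0.000644). SAM3, another synthetase of the family, was not called (0.11, adjusted p = 0.628). ADC, the arginine decarboxylase of polyamine synthesis, fell (-0.47, adjusted p = 0.0403), and ornithine decarboxylase, ODC, was at -0.00026. ADC missed the threshold without psbA deletion replicate 1, wild type replicate 1 or wild type replicate 2 (log2 difference between -0.35 and -0.51, adjusted p up to 0.182).

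Central carbon metabolism gave few calls, beside 12.6% of all named genes called (5.11% higher and 7.48% lower). None of the 19 sucrose, starch and sugar transport genes passed, and 5 had an unadjusted p under 0.05, as had 24.6% of all probe sets. Among these 5 were FRK2, a fructokinase (0.37, adjusted p = 0.0628), AGPL3, a subunit of the starch synthesis enzyme ADP-glucose pyrophosphorylase (-0.70, adjusted p = 0.0714), and the hexokinase hxk1 (0.36, adjusted p = 0.123). TAL, transaldolase of the pentose phosphate pathway, read 0.019 and 0.038 in the psbA deletion and -0.82 and -0.70 in wild type. The TAL difference was 0.79 ± 0.12 (SE) on the log2 scale, or 1.73-fold higher (adjusted p = 0.00385). It was the 1 rise in its list of 7. The malic enzyme ME2 lay just outside the threshold (0.40, adjusted p = 0.0515). SNF1 (0.45, adjusted p = 0.0278) and GAL83 (0.62, adjusted p = 0.00816), catalytic and beta subunits of the energy-sensing SNF1-related kinase, rose, while the gamma-type subunit SNF4 did not pass (-0.10, adjusted p = 0.65). These 3 genes are a group added after the fit was seen. SNF1 lost its call on leaving out each of the 4 psbA deletion and wild type arrays (log2 difference between 0.41 and 0.49, adjusted p up to 0.122). GAL83 lost its call without wild type replicate 1 (log2 difference 0.62, adjusted p = 0.052) and without wild type replicate 2 (0.61, adjusted p = 0.0555). Poly-A control scaling ended the calls of TAL, SNF1 and GAL83.

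In secondary metabolism and the wall, the calls were falls. CHS1, the chalcone synthase that opens flavonoid synthesis, read 0.0015 and -0.12 in the psbA deletion and 0.87 and 0.42 in wild type. The CHS1 difference was -0.71 ± 0.15 (SE) on the log2 scale, or 1.63-fold lower (adjusted p = 0.0201). All 6 genes of the phenylpropanoid list had negative differences, from -0.71 to -0.026, with a median of -0.23. CHS1 was the 1 called, beside 7.48% of all named genes called lower, and the other 5 were not called. The wall list of 23 gave 3 falls around a median of 0.037, beside 12.6% of all named genes called (5.11% higher and 7.48% lower). These were the beta-galactosidases TBG6 (-0.62, adjusted p = 0.0112) and TBG7 (-0.50, adjusted p = 0.0485) and the endoglucanase cel5 (-0.44, adjusted p = 0.0462). GPAT, a glycerol-3-phosphate acyltransferase that starts glycerolipid synthesis, read 0.016 and -0.016 in the psbA deletion and 0.68 and 0.78 in wild type. The GPAT difference was -0.73 ± 0.11 (SE) on the log2 scale, or 1.66-fold lower (adjusted p = 0.00442). CHS1 missed the threshold without psbA deletion replicate 1, psbA deletion replicate 2 or wild type replicate 1 (log2 difference between -0.48 and -0.77, adjusted p up to 0.106). TBG6 missed it without psbA deletion replicate 1 (log2 difference -0.52, adjusted p = 0.0644) and without wild type replicate 1 (-0.57, adjusted p = 0.0795). TBG7 missed it on leaving out each of the 4 psbA deletion and wild type arrays (log2 difference between -0.35 and -0.64, adjusted p up to 0.242). The cel5 call ended on leaving out each of the 4 psbA deletion and wild type arrays (log2 difference between -0.34 and -0.54, adjusted p up to 0.206).

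**Figure D3:**
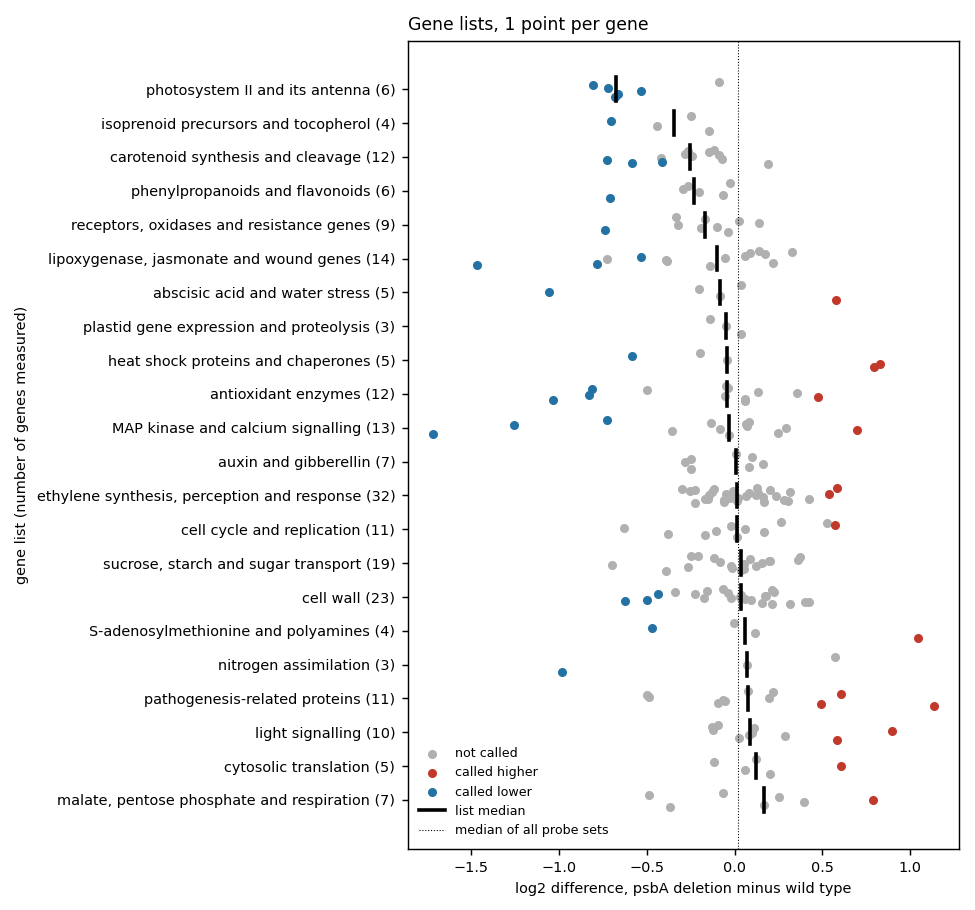
Log2 differences (psbA deletion minus wild type, x axis) of the genes in each list with 3 or more measured members, 1 point per gene, lists ordered by median and the number measured in brackets; blue points fell, red points rose, grey points were not called, black bars are list medians and the dotted line the median of all probe sets, 0.018. Photosystem II stands at the top with 5 of 6 genes lower, and the ethylene list of 32 genes is centred near 0.

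Over all 25 lists, 45 of 225 distinct genes were called, 16 higher and 29 lower, beside 12.6% of all named genes (5.11% higher and 7.48% lower), and with 1 array left out 23 to 36, the fewest without wild type replicate 1. The lists were chosen with earlier results known, and these counts are a description. Among the largest changes outside the lists were genes known here by a locus number alone. LOC543930 read 0.020 and -0.020 on the psbA deletion arrays and 1.51 and 1.52 on the wild type arrays. The LOC543930 difference was -1.51 ± 0.10 (SE) on the log2 scale, or 2.86-fold lower (adjusted p = 0.000212). LOC544217 (-1.39, adjusted p = 0.000293), LOC543561 (-1.07, adjusted p = 0.000684) and LOC543968 (-0.78, adjusted p = 0.00635) fell with no call lost when arrays were left out. On the other side LOC543942 read 0.079 and 0.035 in the psbA deletion and -1.05 and -0.99 in wild type. The LOC543942 difference was 1.08 ± 0.10 (SE) on the log2 scale, or 2.11-fold higher (adjusted p = 0.000585). The gene abz1 rose 1.71-fold (0.77, adjusted p = 0.00546). TH1 rose as well (0.84, adjusted p = 0.0125), and LOC544187, LOC543815, LOC544050, LOC543600, LOC543605 and LOC544142 rose by 0.59 to 0.72 on the log2 scale. Those 6 loci, TH1 and abz1 missed the threshold under poly-A control scaling. Without wild type replicate 1 TH1 (adjusted p = 0.0875), LOC544050 (0.0541), LOC543605 (0.0726), LOC543815 (0.0967), LOC544187 (0.0697) and LOC543600 (0.0637) missed it too. Without wild type replicate 2 TH1 (0.0571), LOC544187 (0.104), LOC543600 (0.158) and LOC544142 (0.152) did. Without psbA deletion replicate 1 LOC543815 (0.0785), LOC543600 (0.126) and LOC544142 (0.11) did, and without psbA deletion replicate 2 LOC544187 (0.0656) and LOC544142 (0.0848). Just inside the threshold stood CGI1, opr2 and LHP1, each with an adjusted p of 0.0492. Just outside stood BMY3, TPx1 and ME2, with adjusted p of 0.0507, 0.0508 and 0.0515.

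The psbA and psaA deletions share the same wild type arrays, so their differences from wild type are given side by side, and the test of unequal change is the psbA deletion minus the psaA deletion. By that test 404 probe sets, 4.02%, differed, 181 higher (1.8%) and 223 lower (2.22%) in the psbA deletion, and 49 of the 802 named genes did so, 6.11%. The count of probe sets was 156 without psbA deletion replicate 1, 198 without psbA deletion replicate 2 and 267 without either wild type array. Among named genes, 21 were both called against wild type and different from the psaA deletion, 18 of them lower and 3 higher than wild type in the psbA deletion. In 7 of the 21 the psaA deletion was called in the opposite direction against wild type, in 3 it was called in the same direction and in 11 it was not called.

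MPK3 showed the widest gap of these genes. Its values were -1.70 and -1.74 in the psbA deletion and 0.56 and 0.66 in the psaA deletion, with -0.078 and 0.078 in wild type between them, a psbA minus psaA log2 difference of -2.33 ± 0.11 (adjusted p = 5.18e-05). The gene loxD read -0.67 and -0.90 in the psbA deletion, 0.69 and 0.75 in the psaA deletion and 0.017 and -0.017 in wild type (psbA minus psaA -1.50, adjusted p = 0.000412). Ve2 read -0.97 and -0.51 in the psbA deletion, 0.65 and 0.59 in the psaA deletion and 0.049 and -0.049 in wild type (psbA minus psaA -1.36, adjusted p = 0.00204). In all 3 genes wild type lay in the middle, and the mutants to either side of it. LOC544153 (-0.78 in the psbA deletion and 0.78 in the psaA deletion, each minus wild type), Rab1A (-0.62 and 0.47), FPPS1 (-0.55 and 0.52) and ADC (-0.47 and 0.49) were the other genes called in opposite directions, each pair in that order.

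Some listed genes that were not called against wild type in the psbA deletion were lower there than in the psaA deletion. AOC differed by -1.08 (adjusted p = 0.00136), the xylanase receptor Eix1 by -1.09 (0.00141), the NADPH oxidase homologue Wfi1 by -1.22 (0.00461), CHI14 by -1.25 (0.0104) and HMGR by -1.03 (0.00429). Against wild type the psbA deletion was at -0.39, -0.19, -0.32, -0.49 and -0.25 in these genes, in that order. Each is smaller in size than the gap between the mutants, so the psaA deletion mean lay above wild type in each. Of the receptor list 4 of 9 genes differed between the mutants, and of the MAP kinase and calcium list 4 of 13, beside 6.11% of all named genes. DGK1 and GPXle-1 differed from both groups. DGK1 was -1.22 from the psaA deletion (adjusted p = 0.00385), whose difference from wild type was -0.039. GPXle-1 was -0.64 (0.0117), with -0.17 for the psaA deletion against wild type. The difference for GPXle-1 missed the threshold without psbA deletion replicate 1 (adjusted p = 0.0654) and without psbA deletion replicate 2 (adjusted p = 0.0608).

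Of the 6 photosystem II genes 0 differed between the mutants by the limma test. The list median was -0.67 for the psbA deletion and -0.97 for the psaA deletion, each minus wild type. PsbQ, for example, had -0.81 in the psbA deletion and -0.98 in the psaA deletion, with a difference of 0.18 ± 0.11 (adjusted p = 0.47), and CAB4 came nearest to passing (0.52, adjusted p = 0.0615). For CAT2, ca2 and LOC543930 the fall was smaller in the psbA deletion by the test of the difference. CAT2 read 0.017 and -0.017 in the psbA deletion, -1.13 and -1.09 in the psaA deletion and 1.07 and 1.01 in wild type (psbA minus psaA 1.11, adjusted p = 0.00103). The gene ca2 was -2.02 in the psbA deletion and -2.83 in the psaA deletion, each minus wild type (psbA minus psaA 0.81, adjusted p = 0.0059), and LOC543930 was -1.51 in the psbA deletion and -2.09 in the psaA deletion (0.57, adjusted p = 0.02). In the carotenoid list CCD1B, a cleavage dioxygenase (0.58, adjusted p = 0.0228), ZEP (0.55, adjusted p = 0.04) and the called VDE probe set (0.56, adjusted p = 0.0231) had higher values in the psbA deletion than the psaA deletion had. Those of ca2, LOC543930, CCD1B and ZEP did not hold without psbA deletion replicate 1 (adjusted p = 0.0512, 0.0966, 0.111 and 0.0892), and those of LOC543930, CCD1B and ZEP not without psbA deletion replicate 2 (adjusted p = 0.082, 0.0586 and 0.165). ZEP did not hold without either wild type array (adjusted p = 0.0757 each). With the probe sets of ca2 averaged its difference was 0.47 (adjusted p = 0.0721), and under poly-A control scaling those of LOC543930, CCD1B and ZEP were 0.35, 0.36 and 0.33 (adjusted p = 0.169, 0.15 and 0.205).

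PCNA and CRY1A were higher in the psbA deletion than in either other group. PCNA read 0.64 and 0.50 in the psbA deletion, -0.28 and -0.24 in the psaA deletion and -0.019 and 0.019 in wild type (psbA minus psaA 0.83, adjusted p = 0.00411). CRY1A read 0.71 and 0.40 in the psbA deletion, -0.12 and 0.0044 in the psaA deletion and -0.057 and -0.0044 in wild type (psbA minus psaA 0.61, adjusted p = 0.0377). The CRY1A difference did not hold without psbA deletion replicate 1 (0.46, adjusted p = 0.152) or without either wild type array (0.61, adjusted p = 0.0747 each). It did not hold with the replicate block (0.61, adjusted p = 0.068) or under poly-A control scaling (0.39, adjusted p = 0.124). GluB (-0.090, adjusted p = 0.741), SAM1 (0.13, adjusted p = 0.557), Aqp2 (0.029, adjusted p = 0.923) and GS2 (0.011, adjusted p = 0.972) were not called different between the mutants, with standard errors of 0.10 to 0.11.

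**Figure D4:**
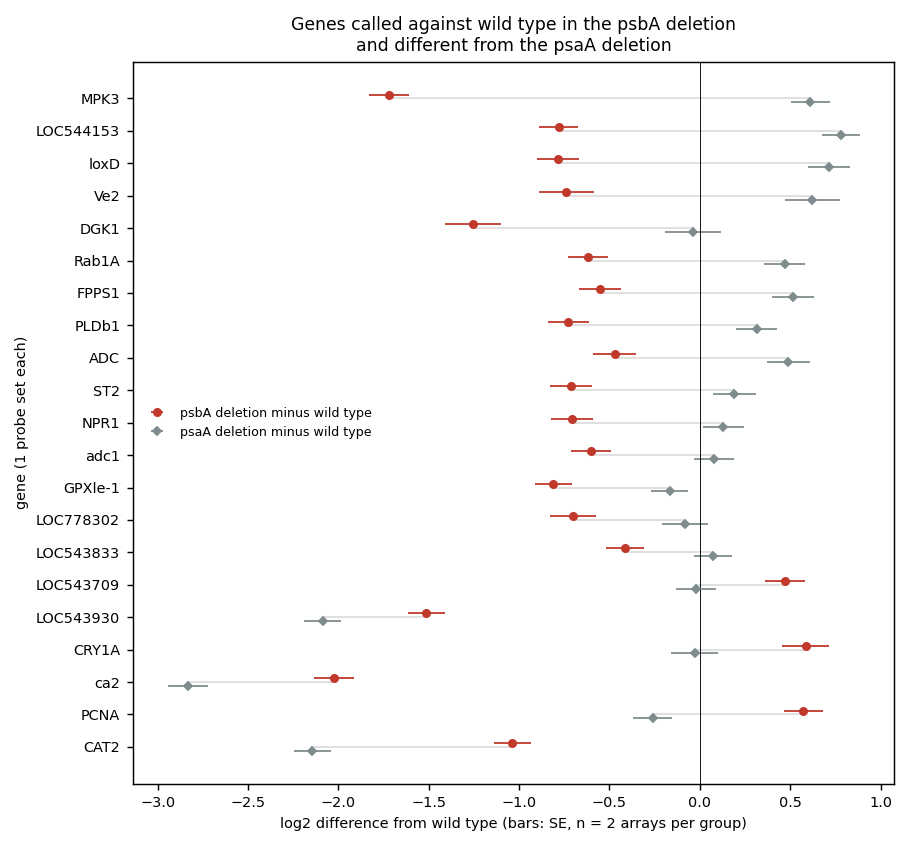
For the 21 named genes called against wild type in the psbA deletion and different from the psaA deletion, red circles give the log2 difference of the psbA deletion and grey diamonds that of the psaA deletion, each minus the same 2 wild type arrays, with SE bars. MPK3, LOC544153, loxD and Ve2 stand on opposite sides of 0 in the mutants, and ca2, CAT2 and LOC543930 stand below 0 in both, further down in the psaA deletion.

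How far 1 probe set stands for a gene could be read where a gene has several. Of 83 such genes, 50 had probe sets of the same sign, and of the 15 with at least 1 called probe set 12 did. In 6 of these, APX2, CRY1A, LOC543942, MPK3, adc1 and ca2, at least 2 probe sets were called in one direction, in 9 only 1 was, and 0 had calls in both directions. Within the 15 genes the median gap between the lowest and highest probe set was 0.79 on the log2 scale, larger than the median called change of 0.63. The gene ca2 spanned the widest range, from -2.29 over -2.02 and -0.82 to -0.068, with the first pair called. BMY3, a beta-amylase symbol, had -0.92 at a called probe set and -0.52 and -0.099 at the others. TH1 rose at the probe set taken for it and read 0.047, adjusted p = 0.836 at the other. A fold given here for a gene is thus that of a probe set on a tomato chip hybridised with tobacco RNA.

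**Figure D5:**
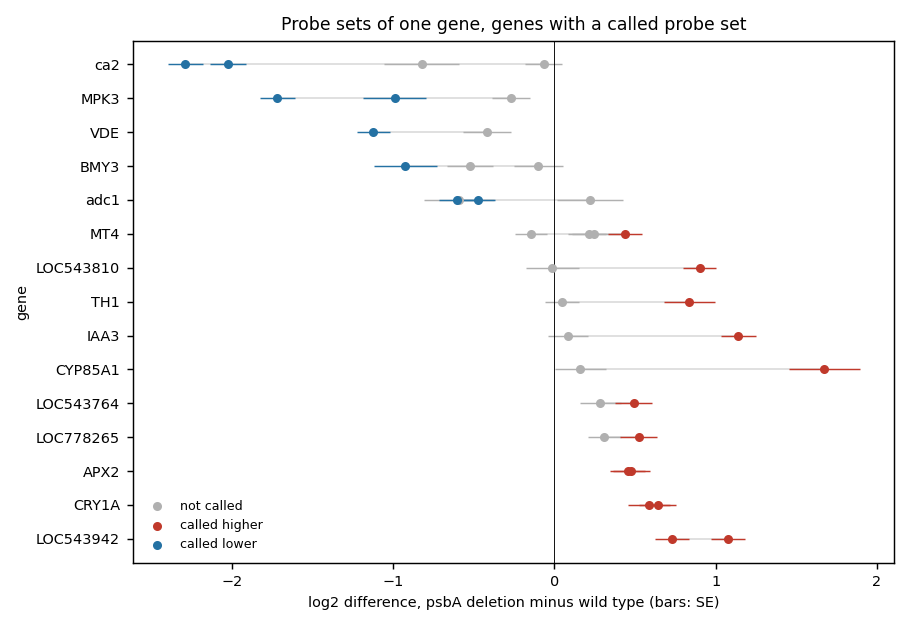
Every probe set of the 15 genes that have several probe sets and at least 1 call, with its log2 difference (psbA deletion minus wild type) and SE bar, 1 row per gene; blue fell, red rose and grey was not called. APX2, CRY1A and LOC543942 have all their probe sets on 1 side with calls. By contrast ca2, MPK3, IAA3 and CYP85A1 hold a called and an uncalled probe set more than 1 log2 unit apart.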

How the data were processed

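Leaf RNA of 6 tobacco samples was hybridised to tomato GeneChip arrays. Array signals were summarised with RMA and GCRMA per the submitters' processing notes, which give no version and do not say which method made the table. The deposited values were read as log2, the base both methods give, since no base is stated. Per probe set the arrays have a median of 0 to within 1e-06, so no signal level remains. Brightness and nearness to background cannot be read, and no filter on dim probe sets was possible. The median SE was 0.125, and the part of dim probe sets in it cannot be read. Of 10209 probe sets, 108 Affymetrix control and 63 reporter ones were left out. Gene symbols came from the platform's annotation, which is old, with 0 probe sets tied to several genes. No sequences or genome positions are used here.

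The test was limma 3.58.1 in R 4.3.3: lmFit on group means of the 6 arrays, then eBayes, with 3 residual and 5.37 prior degrees of freedom. It was tested on simulated data. P-values are two-sided. For a gene with several probe sets one with the plain suffix was taken first, then the first by ID. Genes were named by a rule. It took the 20 largest rises and falls among called genes whose arrays do not overlap, and every called list member. It also took up to 3 uncalled members per list with the smallest p, and further probe sets of all these genes. The 2 largest unnamed probe sets each way and the housekeeping control probe sets completed the rule. The members, the lists and the rule were chosen with earlier results of these data known, and 13 further symbol groups, such as GSA-AT and the malate dehydrogenases, were added after the fit was seen. Alternatives were other scalings, fewer arrays, a replicate block, a robust prior, plain probe sets only, probe sets averaged per gene, and reporter probe sets kept, the last chosen after seeing the data. Plots were drawn with matplotlib 3.10.9.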

Additional observations from a re-analysis of the deposited data

Results flagged for a closer look

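One reporter probe set, outside the tested set, was 6.37 higher on the log2 scale (82.5-fold) in the psbA deletion than in wild type, with 0.28 and 0.35 on the psbA deletion arrays and -6.13 and -5.98 on the wild type arrays. It stands out because the other 62 reporter probe sets differed by -0.411 to 0.435 and because it lies in data that no comparison uses. The engineered sequence it reports is not named here, and the cause of the difference was not tested.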

How the results depend on the processing

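The count of called probe sets, 1130, was 509 to 670 with 1 array left out, and the psbA minus psaA count, 404, was 156 to 267. Called list genes, 45, were 23 to 36, and genes whose probe sets had 1 sign, 50, were 41 to 45. Poly-A control scaling gave 6052 called probe sets (1.67% higher, against 48.5% as deposited), 818 for psbA minus psaA (7.46% higher, against 44.8%), 150 list genes and 76 genes with 1 sign. Hybridisation control scaling gave 1102 (53.7% higher). Poly-A control scaling moves every psbA minus wild type difference by 1 amount (median -0.44, against 0.018 as deposited). Any gene just above 0 then goes below it by construction, which says nothing of the gene itself. Genes that did so include 13 named ones, each called as deposited or under that scaling. The 12 not called as deposited were called lower there: GPXle-2 (-0.459), GSH1 (-0.413), MYC2 (-0.448), NML2 (-0.414), RAB1B (-0.427), RPL37 (-0.455), SP (-0.451), TIP (-0.424), WUS (-0.402), gts1 (-0.389), mMDH1 (-0.449) and sig1 (-0.421). SNF1 (-0.00909), called as deposited, was not.

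Of 72 called genes named, 28 kept their call with each array left out, and median scaling ended 0. With the replicate block 969 probe sets, 302 for psbA minus psaA and 41 list genes were called, and ADC, CLPP2, ER43, Nramp2, PDS, TAS14, TBG7 and cel5 missed the threshold. Deviations of same-numbered psbA deletion and wild type arrays correlated at -0.0081, so the numbers only name arrays. The robust prior ended the calls of TBG7 and opr2. A further limit is that 2 arrays per group, with no signal level kept, leave dim probe sets unmarked.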
